A study of Mus musculus with 9 samples.

Results

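The genes described here are solute carriers, the membrane proteins that move sugars, amino acids, ions, metals, nucleosides, lipids and vitamins across the plasma membrane, the mitochondrial inner membrane and the membranes of lysosomes, Golgi and other organelles. Their members are all genes whose platform symbol begins with Slc and a digit. Of 262 such genes, 5 left out by the rule (Slc7a2, Slc7a11, Slc11a1, Slc40a1 and Slc2a1) were not counted, and 53 did not reach log2 = 6 on any array. That left 204 members among the 10032 genes analysed, each represented by whichever of its probe sets had the highest average. Nearest the limit, the highest array read 6.04 for Slc17a2, 6.06 for Slc5a6 and 6.07 for Slc25a35 inside it, and 5.99 for Slc2a10, 5.99 for Slc26a3 and 5.94 for Slc38a5 outside it.

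The cells were peritoneal macrophages drawn out by thioglycollate, taken from wild-type, MyD88-/- (MyD88 KO) and TRIF-/- (TRIF KO) mice. Each genotype was left unstimulated (0 h) or given 100 ng/ml lipopolysaccharide (LPS) for 1 h or 4 h, and each of these 9 groups was measured on 1 Affymetrix array, so no group has a replicate. Strain background, age, sex, the number of mice pooled and the source of the knockout alleles are not stated in the labels used here. MyD88 and TRIF are the adaptor proteins through which Toll-like receptor 4, the LPS receptor, signals. The comparisons ask how transporter transcripts respond to LPS and how they differ when either adaptor is missing.

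Solute carriers are sorted into numbered families by sequence, and a family usually shares a class of substrate. In macrophages several families bear on defence against microbes: metal carriers set the iron, zinc, copper and manganese that both cell and microbe need, amino acid carriers feed protein synthesis and arginine use, and lysosomal carriers export what digestion releases. Some family members named Slc are not transporters, such as the NHERF scaffold proteins Slc9a3r1 and Slc9a3r2.

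Of 8 macrophage markers, including Cd68, Csf1r and Lyz2, all were well expressed, with a mean log2 level of 11.75 to 11.92 over the 9 arrays. Of these 8, 4 differed between MyD88 KO and wild type in the limma fit described further on: the mannose receptor Mrc1 by 0.705 (log2, adjusted p = 2.43e-05), Fcgr1 by 0.31, Cd14 by -0.466 and Adgre1 by -0.277. Mrc1 was also 0.495 higher in TRIF KO, the 1 macrophage marker called there. The Myd88 probe set read 9.57, 9.58 and 10.002 at 0, 1 and 4 h in wild type and 9.30, 9.19 and 9.34 in MyD88 KO. It was lower in MyD88 KO but far from absent, and the sources used here do not say whether its probes lie inside the deletion. No probe set was named Ticam1, the gene of TRIF, in the annotation used. Fibroblast markers had a mean level of 6.36 to 6.4 in wild type, 6.87 to 6.98 in MyD88 KO and 6.73 to 6.90 in TRIF KO. B cell markers had a mean level of 7.47 to 7.87 in wild type, 7.29 to 7.50 in MyD88 KO and 7.27 to 7.31 in TRIF KO. Their part in the genotype differences given further on was not tested.

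As a class the members were neither brighter nor more variable than other genes on these arrays. Their mean log2 level had a median of 7.73 and ranged from 5.76 to 12.7, beside a median of 7.86 over all genes analysed. The standard deviation over the 9 arrays had a median of 0.10 for the members and 0.103 for all genes. Of the 204 members, 185 were at or above log2 = 6 on all arrays, 19 were below it on at least 1 array and 6 reached it on 1 array only. Probe sets differ in affinity, so levels are given for each gene and not ranked as amounts of RNA. Among members with the brightest probe sets, the ADP/ATP carrier Slc25a5 had a mean of 12.70, the mitochondrial phosphate carrier Slc25a3 12.37 and the CD98 heavy chain Slc3a2 12.22. The lysosomal peptide carrier Slc15a3 had a mean of 11.89, the heme carrier Slc48a1 11.39, the mitochondrial carrier Slc25a39 11.20 and the creatine carrier Slc6a8 10.62. The nucleoside carrier Slc29a3 had 10.56, Slc9a3r1 10.47 and the taurine carrier Slc6a6 10.41.

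After 1 h of LPS no solute carrier transcript passed the test. Responses were fitted with limma on all 10032 genes, with genotype and time as factors, so that the 3 genotypes stand in as replicates of a time. A gene was called at a Benjamini-Hochberg adjusted p under 0.05 over all genes. Of all genes, 0.289% were called higher at 1 h and 0% lower. None of the 204 members was called in either direction, and the lowest adjusted p among them was 0.721. At an unadjusted p under 0.05 there were 9 members, 5 of them higher, which is 4.41% of the members beside 5.41% of all genes. With the limma trend option the count of called members was also 0. The phosphate carrier Slc20a1 had the largest estimate, 0.23 (log2), followed by Slc6a6 and the amino acid carrier Slc7a8 at 0.20 each, while the betaine carrier Slc6a12 had the lowest at -0.19.

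Between single arrays no member differed 1.5-fold at 1 h in any genotype. Of all genes, 0.498% were 1.5-fold higher and 0.0797% lower in wild type, 0.209% and 0.00997% in MyD88 KO and 0.349% and 0.00997% in TRIF KO. In wild type the highest difference was 0.41 for Slc6a6, which read 10.18 unstimulated and 10.58 at 1 h, then 0.35 for the mitochondrial ATP-Mg/phosphate carrier Slc25a25. The lowest was -0.42 for Slc16a1, a carrier of lactate and pyruvate. In MyD88 KO the ends were Slc20a1 at 0.40 and the bicarbonate carrier Slc4a3 at -0.40, and in TRIF KO the sodium-potassium-chloride carrier Slc12a2 at 0.43 and Slc6a12 at -0.39. Different members stood at the ends in each genotype, and with 1 array a group none of these differences has a replicate check.

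At 4 h most members, 178 of 204, were not called, and the shares called were near those of all genes. Called higher were 14 of 204 members, led by carriers of iron, copper and zinc, and called lower were 12, led by Slc46a3, Slc66a2 and Slc37a2. The share of members called higher was 6.86%, beside 4.62% of all genes, and the share called lower was 5.88%, beside 7.13% of all genes. The median estimate over the members was 0.01 (log2) and over all genes -0.016. When each array was centred on 9 reference transcripts, 18 members were called higher and 6 lower, against 14 and 12 with the values as deposited. The fit has no interaction term, so the error behind these p-values holds differences in response between genotypes as well as array-to-array spread. The labels do not tie the arrays to separate mice or cultures, so that spread may be technical.

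Among the 26 called members, the 4 h and the unstimulated arrays mostly did not overlap. The calls were made on these same arrays, so this is a description. In 11 of the 14 members that rose, the 3 arrays of 4 h all lay above the 3 unstimulated arrays, and in 7 of the 12 that fell they all lay below. Over all 204 members this held for 24 upward (11.8%, beside 8.08% of all genes) and 22 downward (10.8%, beside 15.2% of all genes). The members that rose with overlap were Slc11a2, Slc39a4 and Slc7a5, and those that fell with overlap were Slc12a7, Slc27a1, Slc29a3, Slc46a1 and Slc9a3r2. Whichever 1 of the 9 arrays was left out, 14 of the 26 called members stayed called. A fit that left out the unstimulated wild-type array called 9 higher and 7 lower. The number lower was 6 without the wild-type 4 h array, 6 without the unstimulated TRIF KO array and 7 without the TRIF KO 4 h array.

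**Figure D1:**
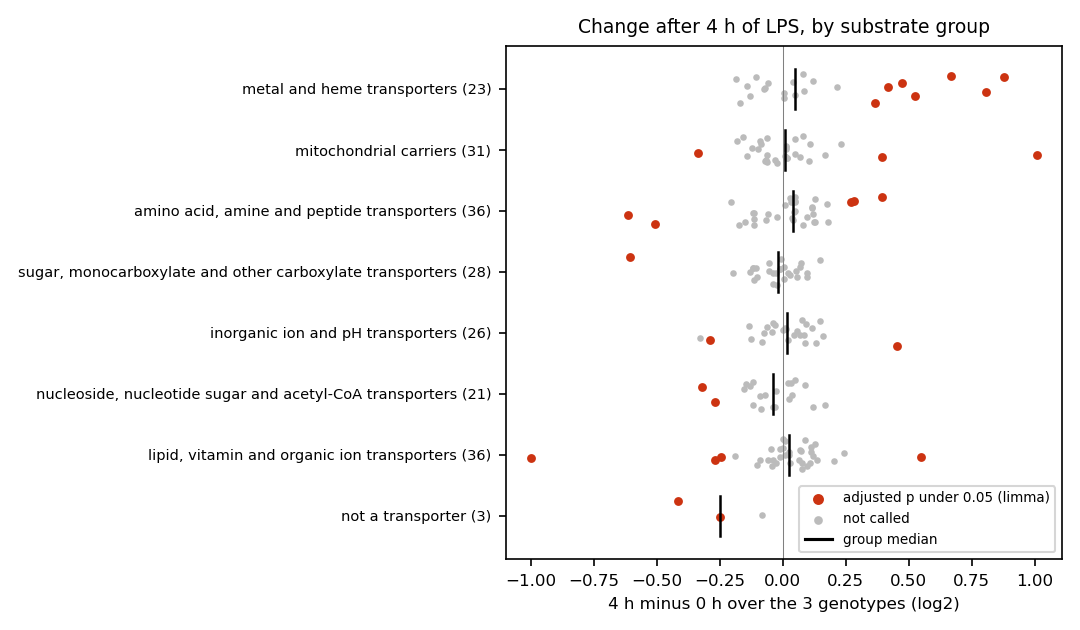
Estimated difference between 4 h and 0 h of LPS over the 3 genotypes (x axis, log2) for each of the 204 members, in rows by substrate group with the number of members in brackets. Red points have a limma adjusted p under 0.05, grey points do not, and the black bar is the median of the group. Metal and heme transporters hold 7 red points, all to the right of 0, while the medians of the 7 transporter groups lie between -0.037 and 0.048.

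By substrate, metal and heme transporters had the most members called higher. Of 23, 7 rose (30.4%, beside 4.62% of all genes) and 0 fell (beside 7.13% of all genes). The 16 others of the group had estimates from -0.18 to 0.21, so the median of the group was 0.05. Of 31 mitochondrial carriers 2 rose and 1 fell, and of 36 amino acid, amine and peptide carriers 3 rose and 2 fell. Of 36 carriers of lipids, vitamins and organic ions 1 rose and 3 fell. Inorganic ion and pH carriers had 1 of 26 in each direction. Of 28 sugar, monocarboxylate and other carboxylate carriers 0 rose and 1 fell, and of 21 carriers of nucleosides, nucleotide sugars and acetyl-CoA 0 rose and 2 fell. Of the 3 Slc-named genes that are not transporters, 2 fell. Families were sorted into these groups by substrate with earlier results of these data known, so the shares are a description.

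Slc25a37 and Slc11a2, both carriers of iron, were among the members that rose most. Slc25a37, mitoferrin-1, which brings iron into mitochondria and is counted here with the mitochondrial carriers, read 7.84, 8.13 and 8.999 at 0, 1 and 4 h in wild type. It read 7.55, 7.50 and 8.63 in MyD88 KO and 7.79, 7.87 and 8.57 in TRIF KO. All 4 h arrays lay above all others, with an estimate of 1.01 ± 0.09 (log2, SE), or 2.01-fold, and an adjusted p of 1.49e-05. Mitoferrin-2, Slc25a28, was not called at 4 h. It read 8.41, 8.37 and 8.28 in wild type, 8.41, 8.43 and 8.43 in MyD88 KO and 8.55, 8.48 and 8.39 in TRIF KO.

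Slc11a2, known as DMT1, carries ferrous iron and other divalent metals out of endosomes. It read 9.73, 9.69 and 10.38 in wild type, 9.005, 9.04 and 9.61 in MyD88 KO and 9.56, 9.59 and 10.30 in TRIF KO. Each genotype was flat to 1 h and higher at 4 h, from a lower start in MyD88 KO, and the estimate was 0.67 ± 0.06 (adjusted p = 3.5e-05). Its 2 other probe sets differed by 0.33 and 0.48 between the mean of the 4 h and of the 0 h arrays. The heme carrier Slc48a1, which takes heme out of the phagolysosome and is also known as HRG1, read 11.47, 11.19 and 11.93 in wild type, 11.11, 11.08 and 11.59 in MyD88 KO and 11.25, 11.18 and 11.73 in TRIF KO. Its 4 h arrays were the highest of each genotype, with an estimate of 0.47 ± 0.07 (adjusted p = 0.000775) and 0.39 by its other probe set. Levels of the iron exporter Slc40a1 and the phagosomal metal carrier Slc11a1, both outside the rule, had estimates of -0.13 and 0.05 that were not called.

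Both copper carriers rose. Slc31a2, which acts in endosomes and lysosomes, read 10.03, 10.04 and 11.25 in wild type, 9.67, 9.83 and 10.26 in MyD88 KO and 10.08, 10.11 and 10.90 in TRIF KO. Its estimate was 0.88 ± 0.11 (1.84-fold, adjusted p = 0.000355), and its other probe set differed by 0.82. Slc31a1, the high-affinity copper importer CTR1 of the plasma membrane, read 8.31, 8.19 and 9.22 in wild type, 8.24, 8.20 and 8.47 in MyD88 KO and 8.42, 8.44 and 8.86 in TRIF KO. The wild-type 4 h array stood highest, and the estimate of 0.53 ± 0.12 (adjusted p = 0.0119) fell to 0.32 without it. Without the unstimulated wild-type array the Slc31a1 estimate was 0.45 and was not called (adjusted p = 0.0721). Its other probe set differed by 0.51.

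Zinc carriers rose in 3 of 16 cases (18.8%, beside 4.62% of all genes) and fell in 0 (beside 7.13% of all genes). Slc39a14, or ZIP14, imports zinc as well as iron and manganese that is not bound to transferrin. It read 7.76, 7.94 and 9.24 in wild type, 7.77, 7.70 and 8.04 in MyD88 KO and 7.89, 8.08 and 8.56 in TRIF KO. Its unstimulated arrays were alike and its 4 h arrays far apart, with wild type highest and MyD88 KO lowest. The estimate was 0.81 ± 0.17 (adjusted p = 0.00729), 0.49 when the wild-type 4 h array was left out and 0.62, no longer called, when the unstimulated wild-type array was (adjusted p = 0.0532). Its second probe set differed by 0.22 only, and with the mean of both probe sets the estimate was 0.51 (adjusted p = 0.0468).

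Slc39a4, the zinc importer ZIP4, lay close above the limit of log2 = 6, at 6.47, 6.37 and 6.97 in wild type, 6.29, 6.08 and 6.31 in MyD88 KO and 6.29, 6.24 and 6.87 in TRIF KO. It was higher at 4 h in wild type and TRIF KO and near its start in MyD88 KO, with an estimate of 0.37 ± 0.09 (adjusted p = 0.0228). That call was lost without any 1 of 4 arrays (the unstimulated and 4 h arrays of wild type and of TRIF KO), with an adjusted p of 0.1 to 0.158. Slc30a6, a Golgi zinc carrier, read 8.24, 8.19 and 8.87 in wild type, 8.11, 8.10 and 8.47 in MyD88 KO and 8.26, 8.38 and 8.53 in TRIF KO. Its estimate was 0.42 ± 0.09 (adjusted p = 0.00799), and it was not called without the wild-type 4 h array. Of the zinc carriers that were not called, Slc39a13 had an estimate of 0.21 (adjusted p = 0.072) and Slc30a1, the plasma membrane zinc exporter, one of 0.12 (adjusted p = 0.409).

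**Figure D2:**
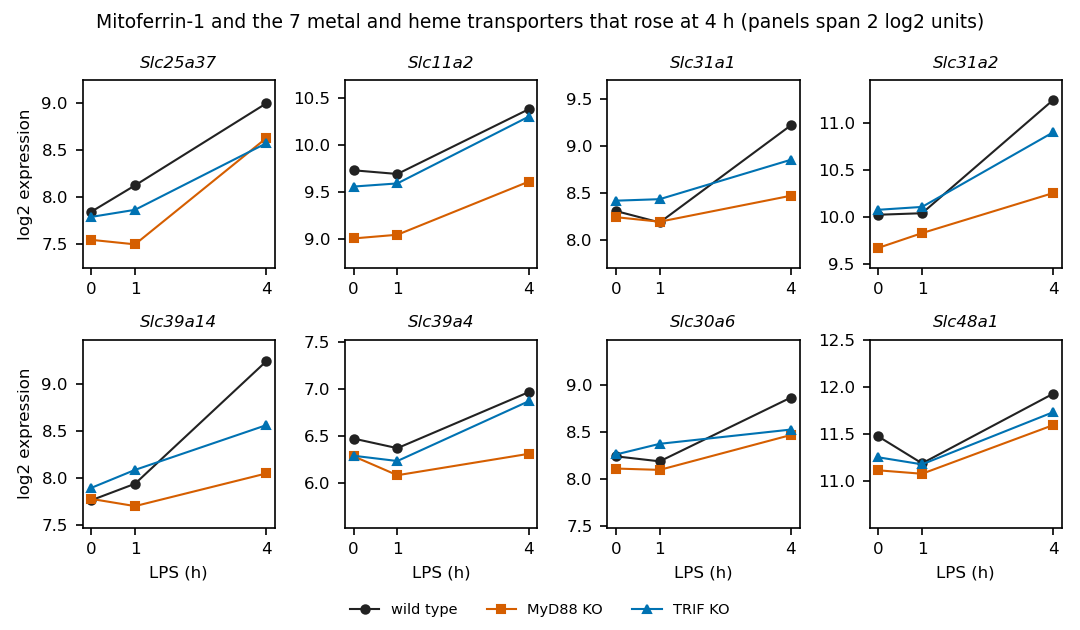
Log2 expression (y axis) against hours of LPS (x axis) for mitoferrin-1 (Slc25a37) and the 7 metal and heme transporters called higher at 4 h; each point is 1 array, black circles wild type, orange squares MyD88 KO, blue triangles TRIF KO. By the probe set shown, Slc11a2 starts lower in MyD88 KO (9.005 against 9.73 in wild type) and rises in parallel. Slc39a14 starts alike and reaches 9.24 in wild type, 8.56 in TRIF KO and 8.04 in MyD88 KO.

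Outside the metals, 6 more members rose besides Slc25a37. Slc44a1, a choline carrier, read 8.76, 8.72 and 9.52 in wild type, 8.68, 8.65 and 9.11 in MyD88 KO and 8.67, 8.71 and 9.13 in TRIF KO, an estimate of 0.55 ± 0.08 (adjusted p = 0.000771). Its other probe set differed by 0.04, so the rise rests on 1 of 2 probe sets. Slc12a4, the potassium-chloride carrier KCC1, had an estimate of 0.45 ± 0.07 (adjusted p = 0.00116), from 7.89 to 8.05 unstimulated to 8.35 to 8.58 at 4 h. The mitochondrial pyrimidine nucleotide carrier Slc25a33 had 0.39 ± 0.07 (adjusted p = 0.00235).

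The other 3 were amino acid carrier subunits. Slc7a8 (LAT2) and Slc7a5 (LAT1) are light chains that carry large neutral amino acids and pair with the heavy chain Slc3a2. The estimate was 0.39 ± 0.07 for Slc7a8 (adjusted p = 0.00215), 0.28 ± 0.08 for Slc3a2 (adjusted p = 0.0262) and 0.27 ± 0.07 for Slc7a5 (adjusted p = 0.0188). Slc3a2 read 12.07, 12.04 and 12.50 in wild type, 12.05, 12.12 and 12.23 in MyD88 KO and 12.21, 12.28 and 12.45 in TRIF KO, so its 4 h arrays were highest in each genotype by a small margin. Neither Slc3a2 nor Slc7a5 was called without the unstimulated wild-type array, the wild-type 4 h array or the unstimulated TRIF KO array.

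Slc7a5, Slc3a2 and Slc38a2 belong to a list of amino acid transporters whose transcription is known to depend on the stress factor ATF4, of which 7 were measured above the filter. Of these, 2 rose (Slc7a5 and Slc3a2, 28.6%) and 1 fell (Slc38a2, 14.3%), beside 4.62% and 7.13% of all genes. The remaining 4, Slc7a3, Slc1a4, Slc1a5 and Slc6a9, had estimates from -0.11 to 0.13 and were not called. Slc7a11 and Slc7a2, carriers of cystine and of cationic amino acids that the rule leaves out, had estimates of 1.84 and 1.32, above any member's. Slc2a1, the glucose carrier GLUT1, also left out, had 0.38 and was called, while none of the 28 sugar and carboxylate carriers among the members rose.

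Slc46a3 fell most. It is a lysosomal carrier, and read 9.06, 8.81 and 7.79 in wild type, 9.13, 9.11 and 8.29 in MyD88 KO and 9.12, 9.10 and 8.24 in TRIF KO. All 4 h arrays lay below all others, lowest in wild type, and the estimate was -0.997 ± 0.08 (adjusted p = 9.66e-06). Slc37a2, a sugar-phosphate carrier, read 10.77, 10.45 and 9.91 in wild type, 10.54, 10.58 and 10.15 in MyD88 KO and 10.40, 10.29 and 9.83 in TRIF KO, an estimate of -0.60 ± 0.08 (adjusted p = 0.000491). Slc29a3, the nucleoside carrier ENT3 of lysosomes, read 10.59, 10.53 and 10.04 in wild type, 10.75, 10.86 and 10.63 in MyD88 KO and 10.57, 10.75 and 10.29 in TRIF KO. Its estimate was -0.32 ± 0.08 (adjusted p = 0.0216), with -0.26 by its other probe set, and the MyD88 KO array at 4 h overlapped the unstimulated arrays of wild type and TRIF KO. It was not called without the unstimulated or the 4 h array of wild type or of TRIF KO (adjusted p from 0.0578 to 0.155), nor with centring on reference transcripts (adjusted p = 0.0618).

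With the heme carrier Slc48a1, which rose, these belong to 8 measured carriers listed as lysosomal. Of the 8, 1 rose (12.5%) and 3 fell (37.5%), beside 4.62% and 7.13% of all genes. The list is short and was drawn up with earlier results of these data known. The other 4 were not called: Slc15a3 and Slc15a4, carriers of peptides and histidine, had estimates of 0.18 and -0.12, Slc66a1, which exports cationic amino acids, had -0.17, and the glucose carrier Slc2a8 had -0.03. Slc66a2, a member of the same PQ-loop family, read 9.86, 9.46 and 8.72 in wild type, 9.42, 9.51 and 9.21 in MyD88 KO and 9.44, 9.44 and 8.94 in TRIF KO. The drop was largest in wild type, which also started highest, and the estimate was -0.62 ± 0.13 (adjusted p = 0.00683). Of its 2 other probe sets, 1 differed by -0.44 and 1 by 0.08.

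Slc38a2 (SNAT2), a sodium-coupled carrier of small neutral amino acids, read 9.13, 9.20 and 8.33 in wild type, 8.93, 8.9965 and 8.59 in MyD88 KO and 9.02, 9.21 and 8.64 in TRIF KO. It was near its start at 1 h and lowest at 4 h in each genotype, with an estimate of -0.51 ± 0.09 (adjusted p = 0.00273). The scaffold Slc9a3r1 fell by 0.42 ± 0.08 (adjusted p = 0.00364), and its 2 other probe sets differed by -0.34 and -0.43. Slc25a13, the aspartate/glutamate carrier citrin of mitochondria, had -0.34 ± 0.06 (adjusted p = 0.00457).

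The 5 other transcripts that fell did so by less: the potassium-chloride carrier Slc12a7 by 0.29, the poorly characterised Slc35f6 and the folate carrier Slc46a1 by 0.27 each, Slc9a3r2 by 0.25 and the fatty acid carrier Slc27a1 by 0.24. Each of these 5 lost its call under at least 1 other setting, and Slc46a1 differed by 0.08 upward on its other probe set. Slc8b1, the mitochondrial sodium/calcium exchanger, had an estimate of -0.33 but was not called (adjusted p = 0.0576), with 10.12 unstimulated and 9.43 at 4 h in wild type against 10.003 and 10.02 in MyD88 KO.

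**Figure D3:**
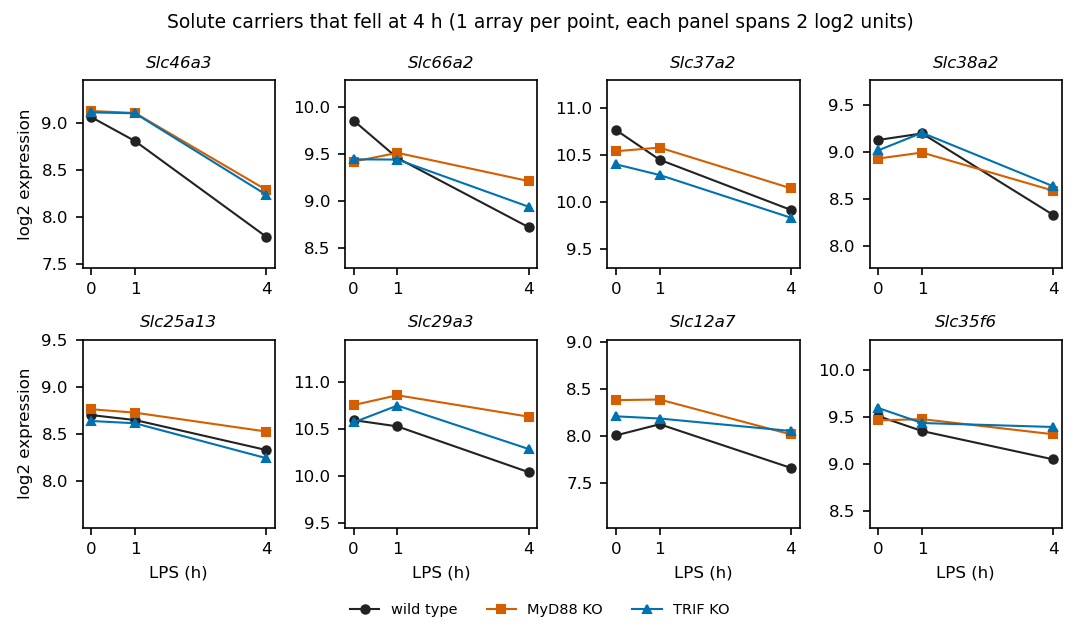
Log2 expression (y axis) against hours of LPS (x axis) for 8 of the 12 members called lower at 4 h; each point is 1 array, black circles wild type, orange squares MyD88 KO, blue triangles TRIF KO. The 4 h array is the lowest of its genotype in every panel, and Slc46a3 falls furthest, to 7.79 in wild type.

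Carriers of central metabolism were mostly not called. Of 4 lactate and pyruvate carriers, Slc16a1 had an estimate of -0.12, Slc16a3 0.06, Slc16a7 -0.20 and Slc16a8 0.07, and 0 were called. Of 7 mitochondrial carriers of citrate-cycle acids, acylcarnitine, aspartate, ADP/ATP and phosphate, Slc25a13 alone was called. The dicarboxylate carrier Slc25a10 had 0.23 (adjusted p = 0.0558), the oxoglutarate carrier Slc25a11 -0.06, the acylcarnitine carrier Slc25a20 0.01, Slc25a3 -0.09, and the ADP/ATP carriers Slc25a4 and Slc25a5 -0.12 and 0.05. Among transporters outside the Slc names, 3 of 32 ABC transporters rose (9.38%) and 4 fell (12.5%). Of 6 organic anion carriers of the Slco family 0 changed in either direction. Of 16 atypical carriers 0 rose and 3 fell (18.8%). Over all genes 4.62% rose and 7.13% fell.

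Windows around the annotated start sites were read for the members with the largest rises and falls, to show what sequence lies there. RefSeq (GRCm38.p6) gave 300-base windows, 250 bases before and 50 after a start, for 158 of the 204 members. Of the 14 members that rose, 8 had a window. Slc25a37, Slc39a14 and Slc11a2, among those that rose most, had no window, so they enter no motif share. Those shown, of 3 members that rose and 3 that fell, are the largest changes with a window among those used here, and are written 5′ to 3′ on the gene's strand. Capitals mark matches, on either strand, to the motifs listed after them.
Slc31a2 (rose; chr4:62286179-62286478, plus strand): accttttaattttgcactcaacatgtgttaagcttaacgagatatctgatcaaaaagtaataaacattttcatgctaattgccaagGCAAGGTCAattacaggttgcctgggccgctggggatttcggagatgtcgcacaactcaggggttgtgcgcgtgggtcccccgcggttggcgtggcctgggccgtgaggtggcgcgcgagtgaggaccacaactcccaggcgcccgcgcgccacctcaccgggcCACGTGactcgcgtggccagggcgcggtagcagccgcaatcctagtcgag
Slc44a1 (rose; chr4:53440163-53440462, plus strand, the first of 2 windows): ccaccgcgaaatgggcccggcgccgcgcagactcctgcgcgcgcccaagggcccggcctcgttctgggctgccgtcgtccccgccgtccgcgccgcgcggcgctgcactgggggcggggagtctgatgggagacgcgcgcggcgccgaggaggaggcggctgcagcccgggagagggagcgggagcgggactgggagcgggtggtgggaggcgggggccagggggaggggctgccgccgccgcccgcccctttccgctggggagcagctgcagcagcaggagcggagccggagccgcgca
Slc31a1 (rose; chr4:62360451-62360750, plus strand): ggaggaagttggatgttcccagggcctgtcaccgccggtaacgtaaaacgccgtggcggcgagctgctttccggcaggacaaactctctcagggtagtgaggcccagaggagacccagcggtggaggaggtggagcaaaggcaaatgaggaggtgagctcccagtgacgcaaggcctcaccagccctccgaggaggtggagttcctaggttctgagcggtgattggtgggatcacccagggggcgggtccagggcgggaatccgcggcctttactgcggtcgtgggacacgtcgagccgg
Slc46a3 (fell; chr5:147894766-147895065, minus strand): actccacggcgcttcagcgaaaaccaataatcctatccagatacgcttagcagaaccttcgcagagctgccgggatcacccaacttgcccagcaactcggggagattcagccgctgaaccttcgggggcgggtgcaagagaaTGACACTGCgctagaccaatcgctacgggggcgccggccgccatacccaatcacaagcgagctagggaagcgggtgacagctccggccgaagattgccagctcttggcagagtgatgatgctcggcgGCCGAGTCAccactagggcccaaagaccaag
Slc37a2 (fell; chr9:37255689-37255988, minus strand): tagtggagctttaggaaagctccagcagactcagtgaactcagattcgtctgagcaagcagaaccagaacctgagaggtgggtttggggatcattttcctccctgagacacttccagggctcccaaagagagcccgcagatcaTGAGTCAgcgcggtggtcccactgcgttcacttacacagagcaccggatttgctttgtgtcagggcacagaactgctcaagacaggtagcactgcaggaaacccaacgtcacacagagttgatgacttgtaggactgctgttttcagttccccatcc
Slc38a2 (fell; chr15:96699679-96699978, minus strand): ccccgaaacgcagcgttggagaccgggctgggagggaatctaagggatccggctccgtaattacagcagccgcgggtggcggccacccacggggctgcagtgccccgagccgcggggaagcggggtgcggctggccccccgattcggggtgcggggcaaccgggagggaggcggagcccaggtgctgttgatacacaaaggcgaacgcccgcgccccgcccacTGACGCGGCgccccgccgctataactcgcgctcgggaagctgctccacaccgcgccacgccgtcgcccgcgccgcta

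The copper carriers Slc31a2 and Slc31a1 lie on the same strand of chromosome 4 with 74.3 kb between the starts of their windows, and both transcripts rose. The window of Slc31a2 holds an E-box (CACGTG) and an antioxidant response element (TGACNNNGC), that of Slc46a3 holds 2 antioxidant response elements, that of Slc38a2 holds 1, and that of Slc37a2 holds an AP-1 site (TGANTCA). Windows of Slc31a1 and Slc44a1 hold no match. Also searched were CRE (TGACGTCA), a C/EBP-ATF composite (TGATGCAA), the NF-kB site and the ISRE. An antioxidant response element can overlap an AP-1 site that shares its first bases.

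The E-box was in 2 of 9 windows of members called higher (22.2%), 4 of 15 of members called lower (26.7%), 9.6% of those not called and 7.2% of all 32851 windows. The antioxidant response element was in 22.2%, 20.0%, 17.0% and 12.4% in the same order, and the AP-1 site in 0%, 20.0%, 5.3% and 7.8%. The NF-kB site was in 0 windows of members called in either direction, 11.7% of those not called and 8.5% of all windows. ISRE, CRE and C/EBP-ATF matches were also in 0 windows of called members and in 3.4%, 1.8% and 0.9% of all windows. In windows of the analysed genes, the E-box was in 9.6%, the antioxidant response element in 13.9%, the AP-1 site in 5.9% and the NF-kB site in 10.7%. The ISRE was in 3.2% of them, CRE in 2.8% and C/EBP-ATF in 0.7%. The 9 and 15 windows belong to 8 and 11 genes, and the 4 E-box windows of members called lower to Slc12a7, Slc25a13 and Slc27a1. With 9 and 15 windows, 1 window more or less moves these shares by several points.

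The 26 members called at 4 h moved the same way in each genotype but mostly by less in the knockouts. They were called on these same arrays, so the shared direction was largely set by the call. Between the 2 wild-type arrays, 3 members were at least 2-fold higher at 4 h (Slc39a14, Slc31a2 and Slc25a37; 1.23% of all genes were) and 2 at least 2-fold lower (Slc46a3 and Slc66a2; 0.459% of all genes). In MyD88 KO 1 member was 2-fold higher (Slc25a37; 0.429% of all genes) and 0 were 2-fold lower (0.00997% of all genes). In TRIF KO 0 members were 2-fold higher (0.409% of all genes) and 0 lower (0.0498% of all genes). At 1.5-fold there were 7 higher and 5 lower in wild type, beside 2.54% and 2.78% of all genes, so that the share lower, 2.45% of the members, was no larger than that of all genes. In MyD88 KO 2 were higher and 1 lower (1.53% and 0.199% of all genes), and in TRIF KO 4 and 1 (1.26% and 0.578% of all genes). Slc25a37, Slc11a2 and Slc46a3 passed 1.5-fold in all 3 genotypes, for which no share of all genes is given here.

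Of the 14 members that rose, 12 had a smaller difference in MyD88 KO than in wild type and 10 a smaller one in TRIF KO. The median difference of the 14 was 0.60 for wild type, against 0.40 for MyD88 KO and 0.45 for TRIF KO. Of the 12 that fell, 9 had a smaller drop in MyD88 KO and 10 a smaller one in TRIF KO, where the median drop was -0.51 for wild type, -0.25 for MyD88 KO and -0.34 for TRIF KO. Over the whole table, genes called at 4 h also mostly differed by less in both knockouts. Of all 463 that rose, 73.2% had a smaller difference in MyD88 KO and 85.5% a smaller one in TRIF KO, and of all 715 that fell, 88.4% and 87.4% did. The median of the 463 was 0.590 for wild type, 0.425 for MyD88 KO and 0.373 for TRIF KO, so the knockouts stood in the other order than in the members. For the 715 it was -0.479, -0.250 and -0.306. Members were called on all 3 genotypes together, and both knockouts are set beside the same 2 wild-type arrays, so these counts are a description. Across the 204 members, the 4 h differences of wild type had a Pearson r of 0.822 with those of TRIF KO and 0.551 with those of MyD88 KO. Over all genes these were 0.782 and 0.554. By rank (Spearman), the correlations across the members were lower, 0.666 with TRIF KO and 0.285 with MyD88 KO. Each genotype has its own unstimulated array here, while the arrays share the platform and the normalization.

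**Figure D4:**
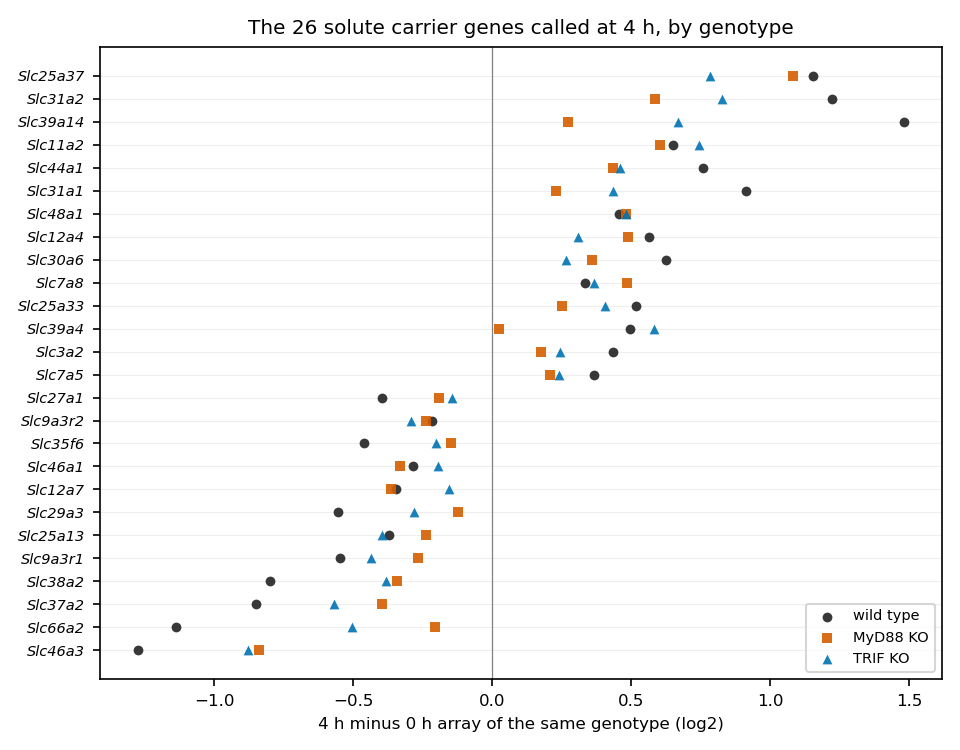
Difference between the 4 h and the 0 h array of the same genotype (x axis, log2) for the 26 members called at 4 h, in order of the estimate over all genotypes; black circles wild type, orange squares MyD88 KO, blue triangles TRIF KO, 1 pair of arrays per point. All points of the 14 upper members lie to the right of 0 and all of the 12 lower ones to the left, and the widest gap is that of Slc39a14, from 1.48 in wild type to 0.27 in MyD88 KO. Members were called on these same arrays.

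The test of the 4 h response itself between genotypes called Slc39a14 alone. It used a second limma fit with a 4 h effect for each genotype and 1 common 1 h effect. Each genotype's 4 h effect rests on 1 array, and the spread comes from the 0 h and 1 h arrays, so the p assumes that 4 h arrays vary as those do. The 4 h response of Slc39a14 was 1.08 ± 0.17 (log2, SE) smaller in MyD88 KO than in wild type, with an adjusted p of 0.00486. The counts were thus 1 of 204 members with a lower response (0.409% of all genes) and 0 with a higher one (0.199% of all genes). Neither of the 2 arrays of 4 h that set this difference could be left out, so leaving out arrays does not check it. The call was lost with the mean of both probe sets (-0.73, adjusted p = 0.206), with values under log2 = 6 raised to 6 (adjusted p = 0.583) and with centring on reference transcripts (adjusted p = 0.0667). Raising low values changed no value of Slc39a14, whose arrays all lay above log2 = 6, but only what the fit draws from other genes.

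Both copper carriers came next without passing the threshold, Slc31a1 at -0.72 (adjusted p = 0.0544) and Slc31a2 at -0.71 (adjusted p = 0.0601). At the upper end Slc66a2 had 0.68 (adjusted p = 0.218) and Slc8b1 0.58 (adjusted p = 0.228), which means a smaller drop in MyD88 KO than in wild type. For TRIF KO 0 members were called lower (0.259% of all genes) or higher (0.0199% of all genes). The lowest adjusted p was 0.0529, for Slc39a14 at -0.82, and 8 members had an unadjusted p under 0.05, 2 of them higher (3.92% of the members, beside 4.41% of all genes). With the limma trend option 1 member was called lower. The difference between the 2 knockouts was not tested.

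Over the 3 times together, 7 members were higher and 8 lower in MyD88 KO than in wild type. These are 3.43% and 3.92% of the members, beside 4.56% and 2.68% of all genes. Of the 8 lower ones, 7 rose at 4 h and 1, Slc27a1, fell. Of the 7 higher ones, 4 fell at 4 h and 0 rose. Both contrasts use the same arrays, and the same counts over all genes are not given here, so this is a description of the members only. Of the fibroblast markers tested, 3 of 4 were called higher in MyD88 KO. Of the B cell markers 2 of 4 were called lower (Cd79a and Ms4a1), while Cd79b at -0.44 and Ighm at 0.209 were not called. With the 4 of 8 macrophage markers given above, their part in the MyD88 KO calls was not tested.

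Metal and heme carriers made up 4 of the 8 that were lower, out of 23 (17.4%, beside 2.68% of all genes), with 0 higher (beside 4.56% of all genes). Slc11a2 had the largest difference, -0.71 ± 0.06 (adjusted p = 2.56e-05), and was lower by 0.73 at 0 h, 0.65 at 1 h and 0.77 at 4 h between single arrays. It was called whichever array was left out, and its 2 other probe sets differed by -0.56 and -0.27. In the latter, the 4 h arrays were near each other, at 7.54 in MyD88 KO and 7.61 in wild type. Slc31a2 had -0.52 ± 0.11 (adjusted p = 0.0155), made up of -0.99 at 4 h and smaller differences before, and was -0.33 and not called without the wild-type 4 h array (adjusted p = 0.061). Slc39a4 had -0.38 ± 0.09 (adjusted p = 0.0281), which was -0.23 without the MyD88 KO 4 h array (adjusted p = 0.188), and Slc48a1 had -0.27 ± 0.07 (adjusted p = 0.0327). Mitochondrial carriers gave Slc25a37 at -0.43 ± 0.09 (adjusted p = 0.00935) and Slc25a33 at -0.31 ± 0.07 (adjusted p = 0.0161). Slc7a5 had -0.42 ± 0.07 (adjusted p = 0.00227) and Slc27a1 -0.41 ± 0.07 (adjusted p = 0.0031).

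Slc7a5 read 8.21, 8.21 and 8.42 in MyD88 KO against 8.56, 8.64 and 8.93 in wild type, so every MyD88 KO array lay below every wild-type array. Slc27a1 read 8.94, 8.996 and 8.75 against 9.45, 9.39 and 9.06, which likewise do not overlap. Both genes were called on these same arrays, so this is a description.

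The 7 members that were higher in MyD88 KO had estimates from 0.33 to 0.41. Slc9a3r1 had 0.41 ± 0.08 (adjusted p = 0.00664), with 0.45 and 0.47 by its 2 other probe sets, and Slc46a1 had 0.38 ± 0.07 (adjusted p = 0.00464). Slc46a1 read 7.23, 7.16 and 6.90 in MyD88 KO and 6.90, 6.66 and 6.61 in wild type. Its other probe set, under log2 = 6 on all arrays, differed by -0.07. The others were the putative amino acid carrier Slc38a10 at 0.37, Slc29a3 at 0.36, the lactate exporter Slc16a3 (MCT4) at 0.34, and Slc12a7 and Slc6a6 at 0.33 each. Slc16a3 read 8.36, 8.51 and 8.56 in MyD88 KO and 8.17, 8.14 and 8.09 in wild type. For Slc38a10 probe sets disagreed, with differences from -0.10 to 0.49 over 7 probe sets.

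The MyD88 KO calls depended on the 4 h arrays. Leaving out the wild-type 4 h array gave 2 members higher and 4 lower, leaving out the MyD88 KO 4 h array gave 4 and 4, and leaving out all 4 h arrays gave 1 and 4. Without the unstimulated wild-type array 11 members were higher, and without the MyD88 KO 1 h array 5 were lower. Of the 15, 5 were called whichever array was left out: Slc11a2, Slc27a1, Slc46a1, Slc7a5 and Slc9a3r1. With the mean of all probe sets, however, Slc46a1 was not called, nor were Slc12a7, Slc38a10 and Slc6a6.

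TRIF KO differed from wild type in 2 members. Slc1a5 (ASCT2), a carrier of glutamine and other neutral amino acids, was 0.41 ± 0.08 higher (adjusted p = 0.0151), at 8.55, 8.44 and 8.50 in TRIF KO against 8.15, 7.86 and 8.25 in wild type. Slc9a3r2 was 0.37 ± 0.06 higher (adjusted p = 0.00848), at 7.82, 7.58 and 7.53 against 7.38, 7.30 and 7.16. In both genes all 3 TRIF KO arrays lay above all 3 wild-type arrays. Both were called on these same arrays, so this is a description. The share of members called higher was 0.98%, beside 1.18% of all genes, and 0 were called lower, beside 0.419% of all genes. Neither call held without the unstimulated or without the 1 h TRIF KO array, nor without all unstimulated arrays. Slc9a3r2 alone was called when the wild-type 1 h array was left out, Slc1a5 alone when the TRIF KO 4 h array was, and 4 members when the unstimulated wild-type array was. Of the fibroblast and B cell markers tested, 3 of 4 were higher and 2 of 4 lower in TRIF KO.

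**Figure D5:**
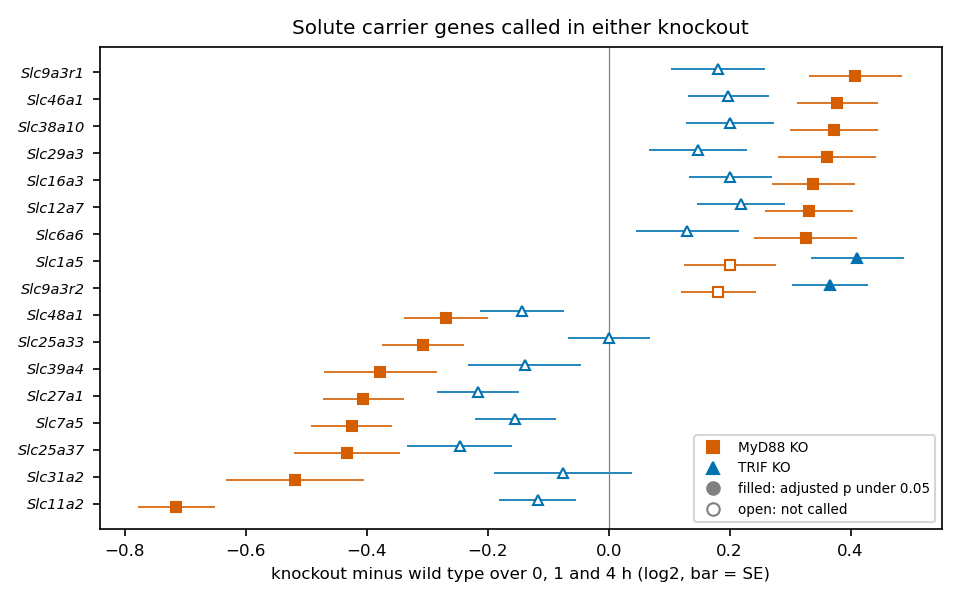
Difference between each knockout and wild type over 0, 1 and 4 h (x axis, log2; bars are the standard error of the limma estimate) for the 17 members called in either knockout. Orange squares are MyD88 KO, blue triangles TRIF KO, filled where the adjusted p is under 0.05. Slc11a2 stands lowest at -0.71 in MyD88 KO, where its TRIF KO value is -0.12 and not called.

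Between unstimulated arrays the differences were small. In MyD88 KO 0 members were 1.5-fold higher than wild type (0.708% of all genes) and 1, Slc11a2, was 1.5-fold lower (0.768% of all genes). In TRIF KO 0 were past 1.5-fold in either direction, beside 0.299% of all genes in each. The other ends in MyD88 KO were Slc6a6 at 0.52 and the zinc carrier Slc30a4 at 0.48 above, and the nucleotide sugar carrier Slc35a5 at -0.57 below. In TRIF KO they were Slc9a3r2 at 0.44 and Slc66a2 at -0.41. At 4 h, 5 members (2.45%, beside 1.5% of all genes) were at least 1.5-fold lower in MyD88 KO than in wild type, and all 5 carry metals: Slc39a14 (-1.19), Slc31a2 (-0.99), Slc11a2 (-0.77), Slc31a1 (-0.75) and Slc39a4 (-0.66). The 2 members at least 1.5-fold higher (0.98%, beside 1.99% of all genes) were Slc8b1 and Slc29a3, both at 0.59. In TRIF KO at 4 h Slc39a14 (-0.68) was the 1 member at least 1.5-fold lower (0.907% of all genes), and 0 were higher (0.558% of all genes).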

How the data were processed

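Affymetrix arrays measured biotin-labelled total RNA in 9 samples. The authors deposited log2 expression values, 1 for each of 22690 probe sets and each array, which RMA produced, per the submitters' processing notes. The RMA version and joint or separate normalization were not given in the sources used here. Array medians lay between 7.01 and 7.07, and values were used as deposited, on the log2 scale.

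Of the probe sets, 20393 had 1 gene symbol in the platform annotation, updated through gene identifiers from a RefSeq table (GRCm38.p6), 691 had several and 1606 were not listed. Probe sets with several symbols named no gene. Genes reaching log2 = 6 on any array were kept, 10032 of 12394. Of the 204 members, 83 had more than 1 probe set.

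limma 3.58.1 in R 4.3.3 (lmFit, eBayes, no trend) fitted genotype and time to all 9 arrays, with 4 residual degrees of freedom and a prior of 8.39. The second fit, with a 4 h effect for each genotype, had 2 and 13.6. Benjamini-Hochberg adjustment ran over all 10032 genes, two-sided, at 0.05. The fits were tested on simulated data. Differences between single arrays have no test and are counted past 2-fold or 1.5-fold, as stated with each count.

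Members and gene lists were chosen with earlier results of these data known. Named genes were, in each contrast, up to 10 called in each direction, and for each pair of arrays the 5 highest and 5 lowest, of which the text gives the ends. Added were the 10 highest means, the ends of each substrate group, the short lists and the genes nearest the filter. Alternatives were the mean of all probe sets, other filters, a floor, centring, the limma trend, other models and leaving out arrays.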

Additional observations from a re-analysis of the deposited data

Results flagged for a closer look

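The 4 h response of Slc39a14, the zinc, iron and manganese importer ZIP14, was smaller in MyD88 KO than in wild type in a limma fit of the difference itself, in which each genotype's 4 h effect rests on 1 array and the spread comes from the 0 h and 1 h arrays only. It was -1.083 (log2) in MyD88 KO relative to wild type, with an adjusted p of 0.00486 from limma. From 0 h to 4 h it rose by 1.48 in wild type, against 0.27 in MyD88 KO and 0.67 for TRIF KO. Its second probe set, which read 7.66 and 8.26 at 0 and 4 h in wild type and 7.90 and 7.75 in MyD88 KO, rose by less in wild type and was slightly lower at 4 h in MyD88 KO. The call was lost with the mean of both probe sets (adjusted p = 0.206), with values under log2 = 6 raised to 6 (adjusted p = 0.583) and with centring on reference transcripts (adjusted p = 0.0667). All arrays of Slc39a14 lay above log2 = 6, so raising low values changed only what the fit draws from other genes.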

How the results depend on the processing

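No result changed direction under any alternative run, and at 1 h the count of called members was 0 under each. Leaving out 1 array in turn, the count at 4 h ranged from 9 to 16 higher and from 6 to 15 lower, for MyD88 KO from 2 to 11 higher and from 4 to 9 lower, and for TRIF KO from 0 to 4 higher. For the 4 h response, where both 4 h arrays compared had to be kept, it ranged from 0 to 3 higher and from 1 to 4 lower in MyD88 KO and from 0 to 1 in each direction in TRIF KO. The genotype factor sets 4 h against 0 h within each genotype, and without it 5 members rose and 5 fell at 4 h, so that 16 of the 26 calls were lost. Centring on reference transcripts left 6 that fell, and leaving out the TRIF KO arrays left 4. The mean of all probe sets left 3 higher in MyD88 KO, where dropping the 4 h arrays left 1 higher and 4 lower. In TRIF KO, raising low values to log2 = 6 or dropping the 4 h arrays left 1 higher, and dropping the unstimulated arrays left 0. For the lower 4 h response in MyD88 KO, raised low values and centring each left 0, while limma trend gave 2, and 1 in TRIF KO. At 1.5-fold, single arrays gave 7 higher and 5 lower members in wild type, 2 and 1 in MyD88 KO and 4 and 1 in TRIF KO, and the mean of all probe sets left 1 that was 2-fold lower in wild type. The cause of these shifts was not tested, beyond fewer arrays where some were left out. Precision is limited by the number of arrays, and members near log2 = 6 by their signal.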
